A study of Homo sapiens with 16 samples.

Results

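Mitochondrial ribosomal proteins are encoded in the nucleus. Their mRNAs were followed here in HEK293 cells, an established line of human embryonic kidney origin, with and without silencing of Gemin5. The members are the protein-coding genes whose symbol starts with MRPL or MRPS and a digit, with pseudogenes left out. There are 78 of them, 49 of the large subunit and 29 of the small subunit by symbol, among 58302 gene identifiers counted, of which 19708 are protein-coding. Gemin5 is an RNA-binding protein of the SMN complex, which assembles small nuclear ribonucleoproteins, and it also binds ribosomes. RNA-Seq was carried out on cytoplasmic lysates (Input) and on pooled polysomal fractions of sucrose gradients (Polysome). Each fraction was taken from cells transfected with 100 nM of a Gemin5 siRNA (siRNAG5) and from control cells (Ctrl), which gave 4 groups with 4 independent biological samples each, 16 libraries in all. The labels call the Ctrl cells untreated, while the protocol names a control siRNA and the study describes Ctrl as treated with it. If the Ctrl cells were untreated, the effect of Gemin5 silencing and that of transfection cannot be told apart. Input is labelled as total RNA and Polysome as polyA RNA, although the methods give a stranded mRNA kit for both, so any difference in RNA selection and the fraction itself cannot be told apart either.

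The mitochondrial ribosome translates the few mRNAs of the mitochondrial genome, which code for core subunits of the respiratory chain and ATP synthase. All its proteins are imported from the cytosol, while its ribosomal RNAs come from mitochondrial DNA. It combines proteins with bacterial counterparts and proteins particular to mitochondria, and its mRNAs are translated by cytosolic ribosomes, which is what a polysome fraction samples.

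The siRNA is shown first because its seed, bases 2 to 8 of the strand that guides cleavage (in capitals), can also pair with other mRNAs. The sense strand as labelled and the guide derived from it as its reverse complement, without the 3′ overhang, read as follows.
Gemin5 siRNA sense strand: ccuuaaucaagaagagaaauu
Gemin5 siRNA guide strand: uUUCUCUUcuugauuaagg

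A site matching this seed, AAGAGAA on the mRNA strand, was found in the 3′ UTR of 12 of the 76 members tested in Input, which is 15.8% against 24.9% of 11863 protein-coding genes tested. These shares were not adjusted for length, and the 3′ UTRs of the members are shorter (median 464.5 against 1322.5 nt). The median log2 fold change (log2 FC) after silencing was -0.53 for members with a site and -0.45 for those without in Input, and -0.60 and -0.50 in Polysome. Over protein-coding genes tested, the medians with and without a site were 0.016 and 0.024 in Input and 0.094 and 0.014 in Polysome. These medians are descriptions, and the part of the seed in the changes was not tested. The site of MRPL33, a small protein of the large subunit, starts at nucleotide 31 of its 251-nt 3′ UTR, and the first of 3 sites of MRPS33, of the small subunit, at nucleotide 572 of 3820, with the site in capitals. The other sites of MRPS33 start at nucleotides 2739 and 2762.
MRPL33: tttgatttataAAGAGAAgactgagggcg
MRPS33: acgtggttagcAAGAGAAatactccctac

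RefSeq promoters (GRCh38.p14, windows that reach from upstream of each start to shortly after it) were matched for 70 members. The ETS motif CCGGAAG, searched on both strands, was present in 29 (41.4%) against 14.2% of 15842 protein-coding promoters. The YY1 motif, which contains an ATG and is given in capitals in the second set of windows, was present in 13 (18.6%) against 1.93%, the NRF1 motif in 8 (11.4%) against 8.57%, and the E-box CACGTG in 7 (10%) against 8.88%. No 2 of these motifs overlapped in any member, and 43 members held at least 1 of the ETS, NRF1 and YY1 motifs. Both subunits contributed, with 17 large and 12 small members holding the ETS motif and 8 large and 5 small the YY1 motif. The ETS windows below belong to MRPS12, MRPL20 and MRPS34, which had the lowest log2 FC on silencing among the members with this motif, in both fractions. The promoters of MRPL23 and MRPL35 were not matched. The motif is in capitals.
MRPS12, chr19:38930928-38930956, plus strand: acggatagcgcCCGGAAGaggctagaagc
MRPL20, chr1:1407320-1407348, minus strand: cgaccttcgccCCGGAAGtatcgcagggg
MRPS34, chr16:1773188-1773216, minus strand: cctcttcctcgCTTCCGGccgcgaccgaa

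In 9 members (MRPL22, MRPL38, MRPL46, MRPL50, MRPS10, MRPS18A, MRPS18B, MRPS24 and MRPS30) the annotated start codon lies inside the YY1 motif, so that the ATG of the motif opens the reading frame. Examples are shown for the tunnel protein MRPL22, for a pair of MRPS18 paralogs, and for MRPS30.
MRPL22, chr5:154941098-154941122, plus strand: gggagggcgaAAGATGGCGGcggca
MRPS18A, chr6:43687763-43687792, minus strand: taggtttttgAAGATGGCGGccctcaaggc
MRPS18B, chr6:30617853-30617882, plus strand: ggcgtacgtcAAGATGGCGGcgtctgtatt
MRPS30, chr5:44808950-44808979, plus strand: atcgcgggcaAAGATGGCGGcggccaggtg

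The start sites were set beside those of cytosolic ribosomal protein mRNAs, the classical TOP mRNAs, which begin with a C followed by pyrimidines. A C with at least 4 further pyrimidines stood exactly at the annotated start of 5 members (7.14%) against 4.6% of protein-coding promoters and 44 of 69 cytosolic ribosomal protein genes (63.8%). Within 5 bases of the start it was found in 15 members (21.4%), 22.1% of protein-coding promoters and 52 cytosolic ribosomal protein genes (75.4%). The windows of 30 bases around the start of MRPL41 and MRPL45, with the run in capitals, and of MRPS12, which has none, are shown as the members called lower in both fractions (MRPL41 and MRPS12) and a member that was not (MRPL45).
MRPL41, chr9:137551869-137551898, plus strand: aatcggagccgCTCTTgctgcgacgcagcg
MRPL45, chr17:38297158-38297187, plus strand: ttcccggcggCCTTTgcgggaacaagatgg
MRPS12, chr19:38930934-38930963, plus strand: agcgcccggaagaggctagaagctggattc

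The members' changes on silencing, described below, were also taken by motif. In Input the median log2 FC was -0.46 over 27 members with the ETS motif and -0.46 over 41 without, and -0.47 over 12 members with the YY1 motif and -0.46 over 56 without. In Polysome it was -0.61 over 28 members with the ETS motif and -0.50 over 40 without, and -0.35 over 11 with the YY1 motif and -0.58 over 57 without. For a pyrimidine run within 5 bases of the start, the Polysome medians were -0.62 over 15 members and -0.50 over 53. These are descriptions with no test.

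Reads counted on genes ranged from 11145324 to 24511299 per library. GEMIN5 itself, in CPM (counts scaled to library size) adjusted by the trimmed mean of M-values (TMM), was 15.9, 18.9, 16.01 and 20.7 in Input Ctrl and 7.46, 6.51, 6.22 and 6.68 in Input siRNAG5. Its levels in Polysome were 5.50, 7.21, 7.76 and 9.28 in Ctrl and 2.10, 3.08, 3.05 and 2.35 in siRNAG5, so the groups did not overlap in either fraction. Markers of HEK293 cells were above 1 CPM in every library for 6 of 8 genes in Input and 8 of 8 in Polysome. Liver mRNAs, which the labels do not account for, summed to 80.8 to 167 CPM in Polysome Ctrl, to 151 and 131 in Input Ctrl replicates 3 and 4, and to at most 2.69 in the other 10 libraries. Their part in the changes below was not tested, beyond the value given without those Input libraries. Principal components were taken over 9638 genes with a higher mean level. In component 3 (10.4% of the variance) Polysome Ctrl 1, siRNAG5 1 and siRNAG5 4 scored 23.6 to 29.0. The other Polysome libraries scored -22.1 to -8.0, a split that crosses the treatments.

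The members lie on 21 chromosomes. MRPL22 and GEMIN5 are neighbours on chromosome 5, with starts 2862 bp apart on opposite strands, and MRPL46 and MRPS11 start 63 bp apart on chromosome 15. Another annotated gene overlaps 24 members on the same strand and 40 on the opposite strand, and 36 members have 81 annotated pseudogenes between them, so reads of these genes may be divided. Reads over the 16 libraries numbered from 111 to 179997 per member, with a median of 35573. MRPL38 (111 reads), MRPS24 (128) and MRPL53 (147) were the lowest and failed the filter on low counts in some or all comparisons. Each is overlapped by a gene on the same strand (ENSG00000267426, URGCP-MRPS24 and CCDC142), and reads assigned to more than 1 gene were listed apart from the genes, so their counts are uncertain.

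Levels between genes were compared per length, as reads per 1000 bases of the exon union and scaled library size (RPKM). The median member of the large subunit stood at 95.8 RPKM in Input Ctrl and that of the small subunit at 42.8. In Input siRNAG5 these medians were 67.8 and 37.9, in Polysome Ctrl 86.7 and 42.0, and in Polysome siRNAG5 53.6 and 32.0. The medians of single libraries for the large subunit spanned 90.1 to 106.7 in Input Ctrl and 62.6 to 71.1 in Input siRNAG5, with no overlap.

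The highest large subunit members in Input Ctrl were MRPL41 at 785 ± 59.7 RPKM (SD, n = 4), MRPL51 at 515 ± 44.2 and MRPL37 at 339 ± 18.7. These are mitochondria-specific proteins. The highest of the small subunit were MRPS34 at 754 ± 49.7, MRPS26 at 351 ± 24.8 and MRPS21 at 272 ± 15.4. At the low end stood MRPL38 at 0.122, MRPL53 at 0.921 and MRPL46 at 3.61, and MRPS24 at 0.391, MRPS27 at 2.66 and MRPS17 at 2.87. The order depends on the length used. Per canonical transcript MRPL51 (797) came before MRPL41 (785), MRPS15 (556) and MRPS21 (376) before MRPS26 (351), and MRPL46 (23.4) and MRPS27 (18.7) were no longer among the 3 lowest of their subunit. The order of the members was close in all groups, with a Spearman correlation of 0.98 between Input Ctrl and Input siRNAG5 over 78 members, which share gene length and composition.

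As a share of all gene reads, the members together took 1.24, 1.37, 1.29 and 1.28% in Input Ctrl and 0.985, 0.991, 1.05 and 1.02% in Input siRNAG5. In Polysome they took 1.83, 1.76, 1.58 and 1.61% in Ctrl and 1.48, 1.37, 1.32 and 1.52% in siRNAG5. Every siRNAG5 library was below every Ctrl library of its fraction, and every Polysome library was above every Input library of its treatment. The mean share was 0.781 times that of Ctrl in Input (1.01% ± 0.0306 against 1.296% ± 0.0513, SD, n = 4) and 0.839 times in Polysome (1.42% ± 0.0949 against 1.69% ± 0.121). A share depends on the other genes of the library. Scaled by TMM, the members summed to 16379.5 to 18464 CPM in Input Ctrl and 11951.7 to 12842.5 in Input siRNAG5, and to 12596.7 to 18100.2 and 8281.01 to 11845.3 in Polysome, so that every siRNAG5 library was again below every Ctrl library, while Polysome and Input overlapped in Ctrl and Polysome was below Input in siRNAG5. Cytosolic ribosomal proteins took 32.6 to 33.7% of gene reads in Input Ctrl, 35.1 to 36.0% in Input siRNAG5, 18.7 to 24.2% in Polysome Ctrl and 13.5 to 20.01% in Polysome siRNAG5. In bulk RNA fewer cells with a transcript and less of it per cell cannot be told apart.

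**Figure D1:**
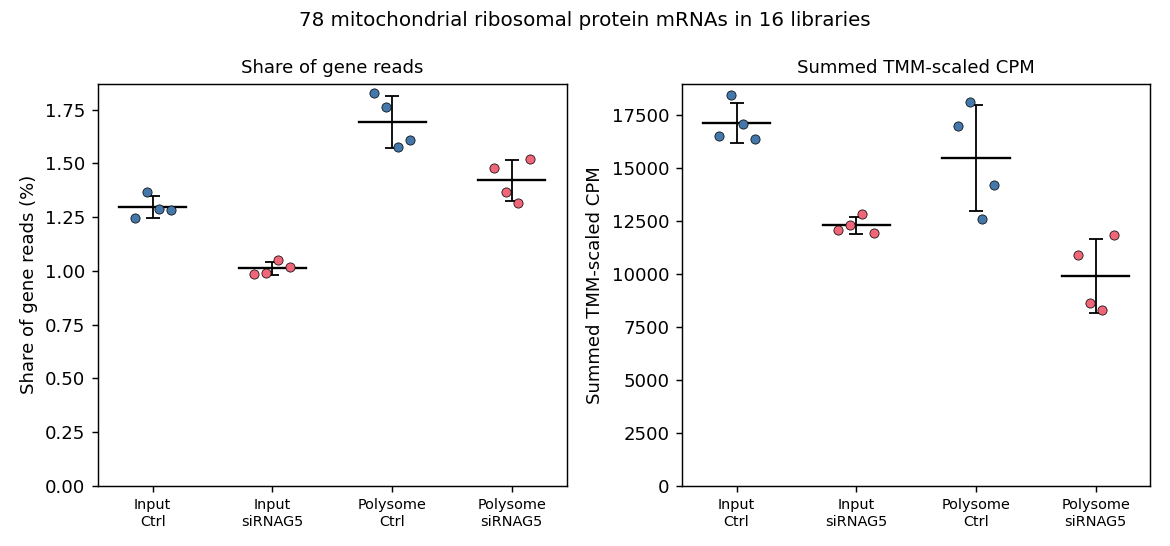
Share of gene reads in percent (left) and summed TMM-scaled CPM (right) of the 78 members in each of the 16 libraries, by group, with points for libraries, a line for the group mean and bars for its SD. The siRNAG5 points lie below the Ctrl points of their fraction in both panels, while the Polysome points lie above the Input points of their treatment only in the panel of shares.

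The first comparison asks how the cytoplasmic level of these mRNAs changed on silencing. In Input, mRNAs of both subunits were lower in siRNAG5 cells, by a median log2 FC of -0.46 (quartiles -0.56 and -0.27), against 0.04 over all 14134 genes tested. A gene was called at an adjusted p under 0.05 (edgeR quasi-likelihood test, Benjamini-Hochberg over all genes) and a log2 FC beyond 0.5. Of 76 members tested, 26 were called lower, where 6.02% of all genes were, and 0 were called higher, where 10.5% of all genes were. The called members comprised 18 of 47 large subunit members (median log2 FC -0.46) and 8 of 29 small subunit members (-0.45). By the adjusted p alone, 65 members fell (19.1% of all genes), and 2, MRPL10 and MRPL45, rose (17.9%). The log2 FC was below 0 in 71 members (46.5% of all genes), and in 63 every siRNAG5 library was below every Ctrl library (19.1%).

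MRPS12 (ENSG00000128626, 19: 38930944 to 38933168), a protein of the decoding centre, was at 247, 310.0, 260.2 and 266 CPM in Input Ctrl and at 133, 134, 144 and 137 in Input siRNAG5. Each siRNAG5 level was well below the lowest Ctrl level, and the log2 FC was -0.97 (SE 0.07, edgeR adjusted p = 2.12e-11), the lowest of all members. MRPL20 (ENSG00000242485, 1: 1401909 to 1407293), which binds the large ribosomal RNA, was at 317, 366, 316 and 308 CPM in Ctrl and 163, 171, 200.4 and 173 in siRNAG5, a log2 FC of -0.87 (SE 0.07, edgeR adjusted p = 1.96e-10). Its groups were also well apart.

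MRPL23 (ENSG00000214026, 11: 1947278 to 1984522), a protein at the exit of the peptide tunnel, was at 178, 186, 163 and 159.6 CPM in Input Ctrl and 88.6, 95.9, 110.4 and 88.7 in siRNAG5. The groups did not overlap, with a log2 FC of -0.83 (SE 0.07, edgeR adjusted p = 7.88e-10). MRPL35 (ENSG00000132313, 2: 86199355 to 86213790) was at 91.1, 101, 95.1 and 88.1 CPM in Ctrl and 48.5, 56.8, 54.4 and 50.3 in siRNAG5, a log2 FC of -0.83 (SE 0.07, edgeR adjusted p = 7.49e-10). Every siRNAG5 library was again below every Ctrl library. MRPS34 (ENSG00000074071, 16: 1771890 to 1773150), a mitochondria-specific protein of the small subunit, was at 789, 900.1, 782 and 823 CPM in Ctrl and 481, 493, 489 and 459 in siRNAG5, a log2 FC of -0.76 (SE 0.06, edgeR adjusted p = 1.57e-10). The groups of this abundant mRNA were far apart.

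Among the other large subunit members called lower, log2 FC was -0.73 for MRPL36, -0.69 for MRPL17, -0.67 for MRPL27 and -0.66 for MRPL41. MRPL36 was at 159, 172, 162 and 153 CPM in Ctrl and 95.4, 100.0, 96.1 and 93.7 in siRNAG5, with no overlap. MRPL46, with few reads and a same-strand neighbour, followed at -0.65. Among the small subunit members, MRPS7, a protein of the head near the tRNA sites, fell by 0.70 on the log2 scale, from 309, 354, 329 and 306 CPM to 188, 196, 215 and 195, again without overlap. MRPS6 was at -0.68, MRPS18C at -0.59, MRPS23 at -0.57, and MRPS15 and MRPS36 at -0.56, all of them called lower by the same edgeR test and rule. MRPS36 is listed as KGD4 in RefSeq, a subunit of a dehydrogenase complex.

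MRPL10 (ENSG00000159111, 17: 47823272 to 47831541), the stalk protein that carries MRPL12, was at 123, 119, 121 and 125 CPM in Input Ctrl and 153, 146, 140.0 and 140.1 in siRNAG5. All 4 siRNAG5 libraries were above the Ctrl libraries, and the log2 FC of 0.26 (SE 0.06, edgeR adjusted p = 0.00161) was the highest of all members, though below the fold change used for a call. MRPL45 (ENSG00000278845, 17: 38297023 to 38323217), which holds the mitochondrial ribosome at the inner membrane, rose by 0.17 (SE 0.06, edgeR adjusted p = 0.0318), from 114, 115, 113 and 106 CPM to 125, 127, 125 and 123, without overlap. MRPL30, MRPS18B and MRPS35 had log2 FC of 0.19 (edgeR adjusted p = 0.119), 0.04 (0.693) and 0.03 (0.773), and their groups overlapped.

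Members that sit together on the ribosome did not all move in the same direction. At the stalk, MRPL10 rose by adjusted p while MRPL11 and MRPL12 had log2 FC of -0.46 and -0.42 (edgeR adjusted p = 3.30e-06 and 9.74e-05). Around the tunnel exit 2 of 6 members were called lower (median -0.34), in the central protuberance 2 of 4 tested of 5 (-0.38), in the head of the small subunit 1 of 8 (-0.40) and in its body 6 of 18 (-0.45). Of the 48 proteins with bacterial counterparts 18 were called lower (-0.48), and of 28 tested of the 30 mitochondria-specific ones 8 were (-0.37).

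The MRPS18 paralogs, which share an ancestor but take different places, spread from a clear fall to little difference. MRPS18C, of the small subunit, was at 153, 176, 158 and 138 CPM in Input Ctrl and 95.2, 100.1, 113 and 104 in siRNAG5 (log2 FC -0.59, SE 0.07, edgeR adjusted p = 3.37e-07). MRPS18B, also of the small subunit, was at 157, 159.7, 169 and 154 CPM and at 174, 160.2, 161 and 156. The former did not overlap between groups and the latter did. MRPS18A, which despite its symbol sits in the large subunit, was at 133, 147, 147 and 139 CPM in Ctrl and 122, 117, 123 and 116 in siRNAG5 (log2 FC -0.23, edgeR adjusted p = 0.00576). MRPS30, the other protein of the large subunit with such a symbol, was at 77.1, 80.5, 75.4 and 82.6 and at 55.3, 69.5, 64.5 and 69.2 (log2 FC -0.27, edgeR adjusted p = 0.00505). Neither overlapped, and neither reached the fold change of a call.

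**Figure D2:**
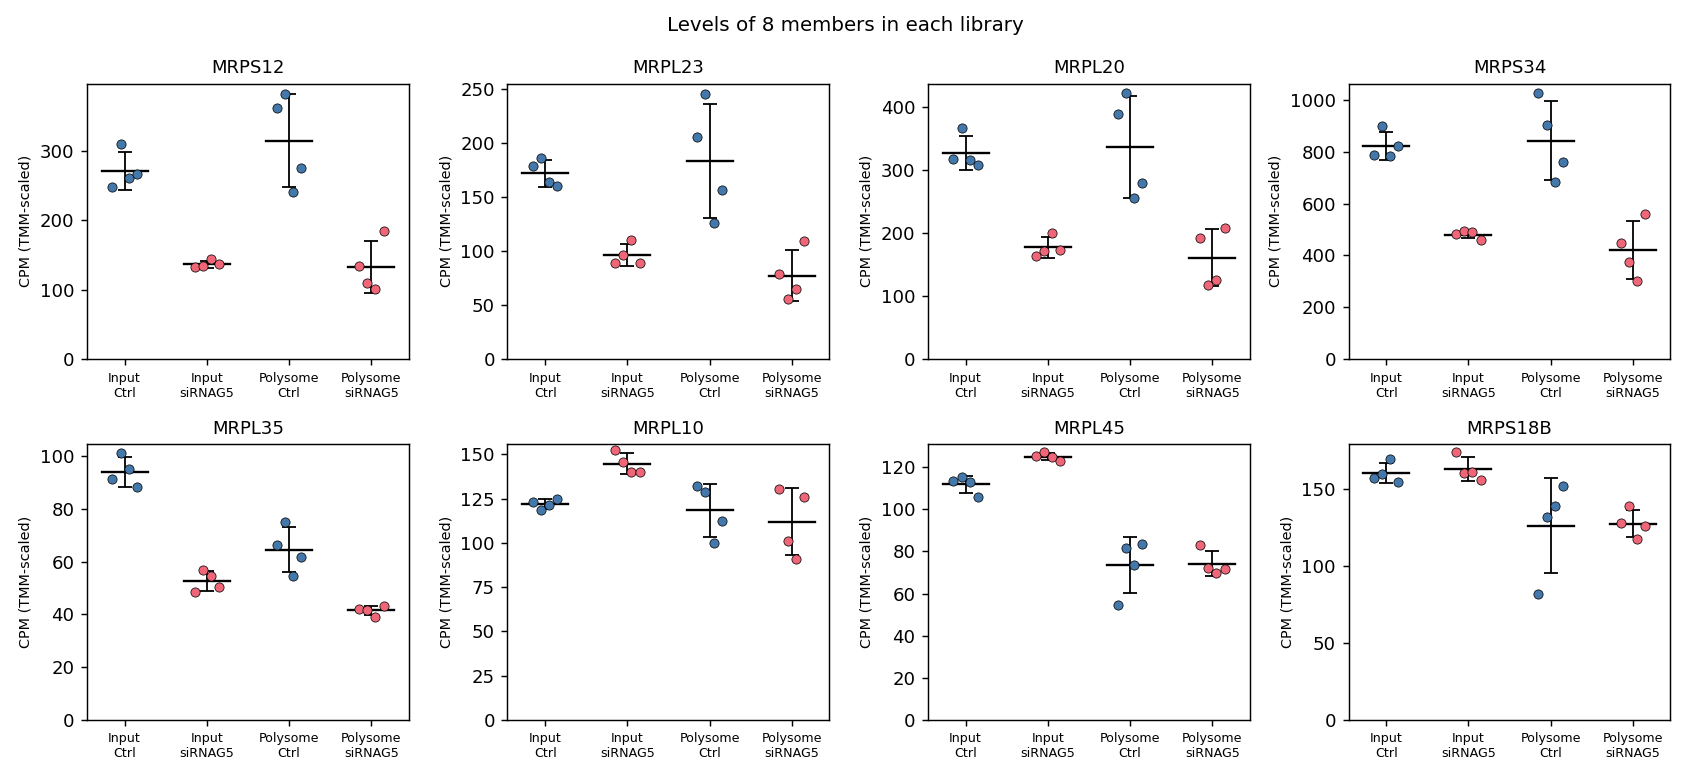
TMM-scaled CPM of 8 members (MRPS12, MRPL23, MRPL20, MRPS34, MRPL35, MRPL10, MRPL45 and MRPS18B) in each of the 16 libraries, 1 panel per member and 1 column per group, with points for libraries, a line for the group mean and bars for its SD, on axes that start at 0. The first 5 lie lower in siRNAG5 than in Ctrl in both fractions, MRPL10 and MRPL45 lie higher in Input siRNAG5, and MRPS18B overlaps between Ctrl and siRNAG5.

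Without Input Ctrl 3 and 4, the libraries with liver mRNAs, the median log2 FC of the members in Input was -0.48. Scaling by library totals in place of TMM moved the median of all genes to 0.14 and that of the members to -0.35. This left the members at -0.50 relative to all genes under either scaling. Scaling moves all genes of a library together, so this difference could hardly change and is no separate check. With library totals 15 members were called lower, where 3.18% of all genes were.

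The same comparison in Polysome asks how these mRNAs changed among those bound by ribosomes. They were lower here too, by a median log2 FC of -0.53 (quartiles -0.71 and -0.29), against 0.03 over all 14420 genes tested. Of 76 members tested, 20 were called lower, where 4% of all genes were, and 0 were called higher, where 3.95% of all genes were. The called members were 12 of 48 large and 8 of 28 small subunit members. At an unadjusted p under 0.05, 50 were lower (13.3% of all genes) and 0 higher (14.4%). The log2 FC was below 0 in 70 members (46.9%), and in 40 the groups did not overlap, with siRNAG5 lower (10%). The spread was wider than in Input, with a median SE of 0.19 against 0.07. The call count ranged from 0 without Polysome Ctrl 2 (0.768% of all genes) to 30 without siRNAG5 4 (5.72%). Without the 3 Polysome libraries that stood apart 49 members were called lower, where the share over all genes also rose, to 12.1%. With library totals in place of TMM 8 members were called lower and 1 higher, where 1.44 and 16% of all genes were. The median of the members was then -0.19 and that of all genes 0.38. This left the members -0.57 relative to all genes, a difference that scaling can hardly move.

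MRPS12 was again lowest, at 361, 382, 241 and 275 CPM in Polysome Ctrl and 134, 109, 101 and 184 in siRNAG5, a log2 FC of -1.22 (SE 0.22, edgeR adjusted p = 0.0125). MRPL23 was at 205, 245, 126 and 157 CPM in Ctrl and 78.8, 55.5, 64.6 and 109.5 in siRNAG5, a log2 FC of -1.21 (SE 0.25, edgeR adjusted p = 0.0174). In both, Ctrl 1 and 2 were above Ctrl 3 and 4 and the groups did not overlap. MRPL41 was at 581, 573, 348 and 380.3 CPM in Ctrl and 239, 153, 156 and 321 in siRNAG5 (log2 FC -1.08, SE 0.27, edgeR adjusted p = 0.0351). MRPL36 was at 169.5, 193, 113 and 137 CPM and at 78.5, 60.8, 55.5 and 92.8 (-1.05, SE 0.21, adjusted p = 0.0159). In both, siRNAG5 2 and 3 were the lowest libraries.

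MRPL20 was at 388, 421, 256 and 278 CPM in Polysome Ctrl and 193, 118, 126 and 207 in siRNAG5 (log2 FC -1.03, SE 0.24, edgeR adjusted p = 0.0256). MRPS34 was at 1026, 902, 683 and 759 CPM and at 449, 373, 302 and 561 (-0.96, SE 0.22, edgeR adjusted p = 0.0252). Neither overlapped between groups. MRPL35 spread less, at 66.4, 75.2, 54.6 and 61.9 CPM in Ctrl and 42.2, 41.8, 39.1 and 43.0 in siRNAG5 (-0.60, SE 0.13, edgeR adjusted p = 0.0242). MRPL27, MRPL51, MRPS7 and MRPS6 were also called lower by edgeR, with log2 FC of -0.89, -0.88, -0.81 and -0.79.

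MRPL55, MRPS33, MRPS26, MRPS21, MRPS25 and MRPL28 were called lower in Polysome and not in Input, with Polysome log2 FC of -0.75, -0.72, -0.69, -0.69, -0.68 and -0.64. In Input, too, each of them had every siRNAG5 library below every Ctrl library. Their calls therefore do not mark a change in Polysome alone. The stalk protein MRPL10, which rose in Input by adjusted p, was at 132, 129, 99.8 and 112 CPM in Polysome Ctrl and 130.3, 101, 90.9 and 126 in siRNAG5 (log2 FC -0.04, edgeR adjusted p = 0.903). These groups overlapped. MRPL45 and MRPS18B had log2 FC of 0.06 each (edgeR adjusted p = 0.832 and 0.851), MRPS30 of 0.04 (0.877) and MRPS22 of 0.26 (0.282), and all overlapped. MRPL11 and MRPL12 were at -0.80 and -0.81, with edgeR adjusted p of 0.0512 and 0.0655, so the stalk had 0 of 3 members called. The tunnel exit had 1 of 6, the central protuberance 0 of 4 tested, the head of the small subunit 2 of 7 tested and its body 6 of 18 called lower.

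Called lower in both fractions were 14 members, which is 53.8% of the 26 called in Input and 70% of the 20 called in Polysome. They were MRPL9, MRPL15, MRPL19, MRPL20, MRPL23, MRPL27, MRPL35, MRPL36, MRPL41, MRPL51, MRPS6, MRPS7, MRPS12 and MRPS34. The overlap of calls over all genes is not given here, so these percentages stand without a background. The Input and Polysome comparisons share no library, though the study describes both fractions as taken from the same lysates.

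**Figure D3:**
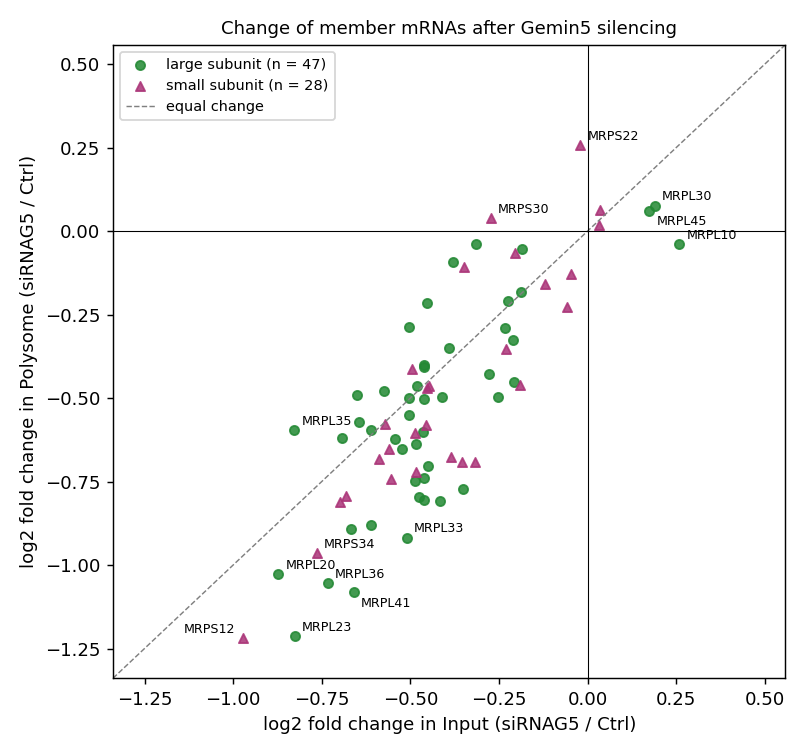
Log2 FC of siRNAG5 against Ctrl in Input (horizontal) and in Polysome (vertical) for the 75 members tested in both, as circles (large subunit) and triangles (small subunit), with lines at 0 and a dashed line of equal change. Most points lie below 0 on both axes, and MRPL10 lies farthest to the right, at 0.26 in Input.

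Whether the change differed between the fractions was tested in a single fit of all 16 libraries, as the Polysome change minus the Input change. Of 77 members tested 0 were called by edgeR in either direction, where 0% of all genes were, and 0 members had an unadjusted p under 0.05, where 4.69% of all genes were lower and 2.59% higher. DESeq2 called 0 members, where 0.0735% of all genes were called lower and 0.12% higher. The median difference was -0.14 against -0.06 over all genes, and 59 members were below 0 (59% of all genes). The differences ran from -0.67 for the scarce MRPL53 (SE 0.52, edgeR adjusted p = 0.833) to 0.28 for MRPS30 (SE 0.15, edgeR adjusted p = 0.720). Of the 75 members tested in both fractions, 51 had the lower log2 FC in Polysome. The share of all genes with the lower log2 FC in Polysome is not given here, so this count stands without a background. Without the 3 Polysome libraries that stood apart, 9 members had a difference called lower, where 4.3% of all genes did.

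Polysome was then compared with Input within each treatment, which asks which member mRNAs were more or less frequent among ribosome-bound mRNAs than in the lysate. In Ctrl cells, 12 of 75 members tested were called lower in Polysome, where 18.8% of all genes were, and 3 higher, where 20.8% of all genes were. In siRNAG5 cells it was 11 of 75 lower (21.2% of all genes) and 3 higher (23.9%). The medians were -0.13 and -0.25 against -0.03 and -0.04 over all genes. These directions depend on scaling. By library totals the median of all genes moved to 0.51 in Ctrl and 0.69 in siRNAG5 and that of the members to 0.39 and 0.47. This left the members -0.11 and -0.22 relative to all genes, differences that scaling can hardly move. With offsets for length and GC content the members turned to 0.15 and 0.11, that is 0.11 and 0.08 above all genes. The calls in Ctrl then became 6 lower and 11 higher, where 18.2 and 18.9% of all genes were.

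Lower in both treatments were 8 members, MRPL2, MRPL22, MRPL45, MRPS5, MRPS9, MRPS22, MRPS28 and MRPS31. The share of all genes lower, or higher, in both treatments is not given here. MRPS31 (ENSG00000102738, 13: 40729128 to 40771190), a mitochondria-specific protein of the small subunit, had the lowest values, at 58.3, 70.3, 63.6 and 67.1 CPM in Input Ctrl and 13.7, 29.9, 31.4 and 33.4 in Polysome Ctrl. In siRNAG5 it was at 51.7, 56.8, 60.7 and 53.9 CPM in Input and 24.8, 30.9, 26.3 and 18.1 in Polysome. The fractions were far apart in both treatments, with log2 FC of -1.25 (SE 0.20, edgeR adjusted p = 9.33e-05) and -1.07 (SE 0.16, edgeR adjusted p = 0.000147). It has 5 annotated pseudogenes.

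MRPS9, a protein of the head, was at 134, 141, 137 and 143 CPM in Input Ctrl and 42.3, 80.1, 68.0 and 81.3 in Polysome Ctrl. In siRNAG5 it was at 125, 144, 141 and 123 and at 61.9, 73.6, 58.8 and 46.1, so no Polysome library reached an Input library. The log2 FC was -1.02 (SE 0.16, edgeR adjusted p = 9.84e-05) and -1.06 (SE 0.15, edgeR adjusted p = 9.07e-05). MRPS22 was at -0.92 and -0.61, and the tunnel protein MRPL22 at -0.79 and -0.62. MRPL45, MRPL2, MRPS28 and MRPS5 lay between -0.67 and -0.51 in both.

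Higher in both treatments were MRPL30, MRPL49 and MRPS17. MRPL30 was at 18.3, 23.2, 21.2 and 21.5 CPM in Input Ctrl and 32.5, 47.2, 40.0 and 44.5 in Polysome Ctrl, and at 24.9, 24.7, 23.2 and 22.8 and 42.2, 38.9, 44.4 and 42.2 in siRNAG5. Every Polysome library was above every Input library, with log2 FC of 0.97 (SE 0.14, edgeR adjusted p = 2.90e-05) and 0.90 (SE 0.10, edgeR adjusted p = 2.29e-05). Other genes annotated on the same strand overlap MRPL30. MRPL49, mitochondria-specific, was at 44.6, 49.5, 43.1 and 47.7 CPM in Input Ctrl and 69.5, 78.4, 81.2 and 81.7 in Polysome Ctrl, with log2 FC of 0.76 and 0.68 in the 2 treatments (edgeR adjusted p = 3.79e-05 and 0.000205). MRPS17, with few reads, was at 0.90 and 0.66 (edgeR adjusted p = 0.000233 and 0.00904).

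**Figure D4:**
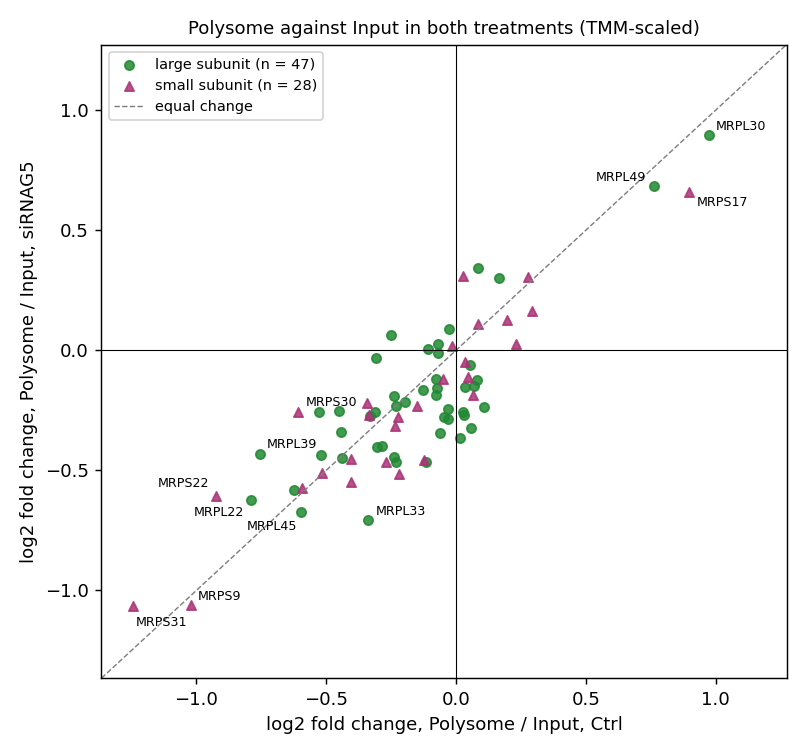
Log2 FC of Polysome against Input in Ctrl (horizontal) and in siRNAG5 cells (vertical) for the 75 members tested in both, as circles (large subunit) and triangles (small subunit), with lines at 0 and a dashed line of equal change. MRPS31 and MRPS9 lie lowest on both axes, and MRPL30, MRPL49 and MRPS17 lie above 0 on both.

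The members have short mRNAs. The median canonical transcript has 1242 nt, against 3336 nt over 11884 protein-coding genes tested in Input, with a 5′ UTR of 30.5 against 140 nt, a coding sequence of 585 against 1392 nt and a 3′ UTR of 464.5 against 1322.5 nt. They have 5 exons against 9, while the GC content was 48.2 against 48.3%. In Input the median log2 FC on silencing was -0.51 for 25 members under 1000 nt, -0.39 for 33 from 1000 to under 2000 nt and -0.46 for 18 from 2000 nt on, where all genes were at -0.02, -0.06 and 0.06. The called members numbered 14, 6 and 6. In Polysome the medians were -0.75, -0.41 and -0.52, where all genes were at -0.25, -0.12 and 0.11, and 10, 6 and 4 were called. The shares of all genes called at these lengths are not given here, so the called counts in both fractions stand without a background. The Spearman correlation of log2 FC with transcript length was 0.26 over 76 members in Input and 0.48 in Polysome, against 0.17 and 0.31 over all genes, as a description across genes that share libraries. With offsets for length and GC content the median of the members was -0.35 in Input and -0.37 in Polysome. The part of length in these changes was not tested further.

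**Figure D5:**
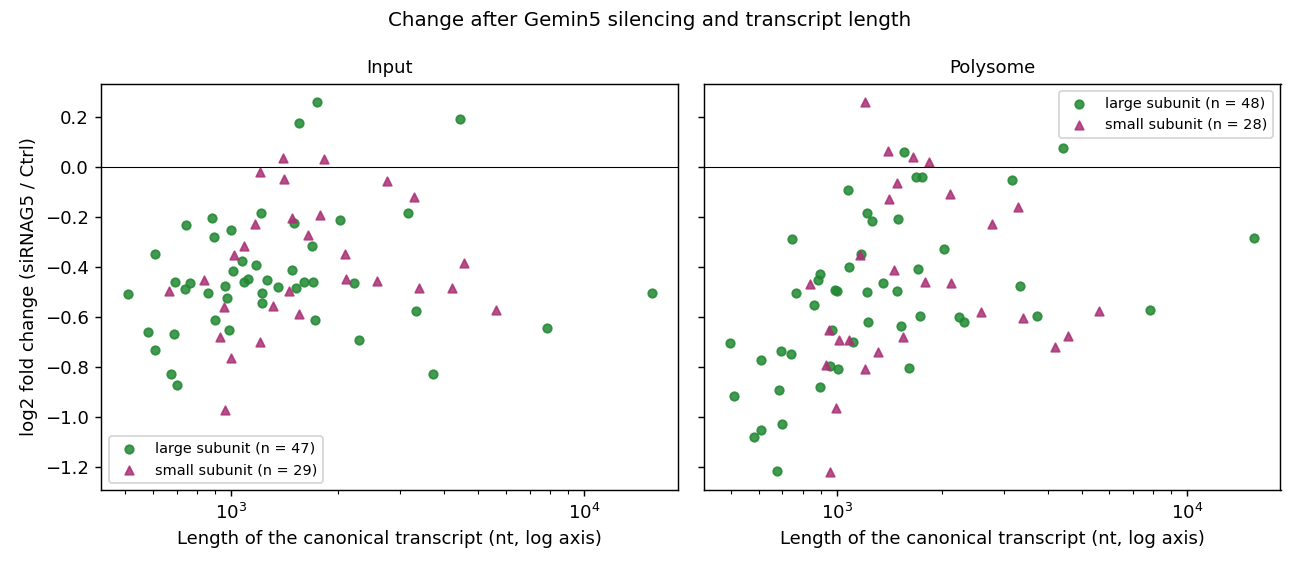
Log2 FC of siRNAG5 against Ctrl for the members against the length of their canonical transcript in nt on a log axis, in Input (left) and in Polysome (right), as circles (large subunit) and triangles (small subunit). In Polysome the members under 1000 nt have a median of -0.75, against -0.41 for those from 1000 to under 2000 nt.

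Subunits of the mitochondrial ribosome with other names were followed too. GADD45GIP1, of the large subunit, fell in both fractions (log2 FC -0.60 in Input and -0.96 in Polysome). Of 4 such small subunit genes 1, AURKAIP1, was called lower in each fraction (-0.51 and -0.83). Among 23 factors that assemble the mitochondrial ribosome, 4 were lower in Input (MRM1, an rRNA methyltransferase, at -0.73, MPV17L2, MTERF4 and MALSU1) and 1 higher (NOA1, a GTPase, at 0.62), while in Polysome 2 were lower (MRM1 at -0.94 and MPV17L2 at -0.76). Over all genes 6.02% were called lower and 10.5% higher in Input, and 4% and 3.95% in Polysome, which also holds beside the lists that follow.

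Among 16 factors of mitochondrial translation, 3 were lower in Input. They were PDF, the peptide deformylase, at -1.13, MRRF, the ribosome recycling factor, at -0.70, and SLIRP, an RNA-binding partner of LRPPRC, at -0.65. In Polysome 4 were lower, PDF at -1.24, MRRF at -1.22, SLIRP at -0.88 and TACO1, a translational activator, at -0.55, and LRPPRC was higher at 0.62. PDF stood at 20.2, 22.8, 18.6 and 21.0 CPM in Input Ctrl and at 10.99, 8.66, 10.0 and 7.89 in Input siRNAG5, without overlap.

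For comparison, of 84 cytosolic ribosomal protein genes tested in Input 3 were called lower and 1 higher, with a median of -0.03. In Polysome 9 cytosolic ribosomal protein genes were called lower (median -0.80), where 4% of all genes were. At an unadjusted p under 0.05, 68 were lower, where 13.3% of all genes were. Between the fractions, 75 cytosolic ribosomal protein genes were lower in Polysome than in Input in Ctrl (median -0.98) and 79 in siRNAG5 (-1.69), against 12 and 11 members and 18.8 and 21.2% of all genes. Of 74 nuclear genes for subunits of the respiratory chain tested, 9 were called lower in Input (median -0.31) and 4 in Polysome (-0.48). No test of these differences between lists was made.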

How the data were processed

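The authors aligned the reads of the stranded mRNA libraries to GRCh38 (Ensembl release 91) with STAR 2.5.3a and counted them per gene with QoRTs, and the deposited values are whole-number read counts without normalization, 1 file per library. Whether the counting used strand is not given in the sources used here, so reads of antisense neighbours may be included. Rows for reads with no gene (0.667 to 1.33% of reads), several genes (4.14 to 7.41%) or several alignments (4.88 to 6.04% in Input and 21.2 to 42.4% in Polysome) were not part of library sizes or tests. Identifiers were named from GENCODE release 44 (57532 of 58302), whose gene coordinates are given.

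Groups followed the labels. Each pair of groups was filtered with filterByExpr, scaled by TMM and fitted by the quasi-likelihood method of edgeR 4.0.16 (R 4.3.3), with group as the only term and Benjamini-Hochberg adjustment over all genes, and the difference between fractions in 1 fit of all 16 libraries. Named genes were, per comparison and subunit, up to 8 called members with the largest fold change in each direction and up to 3 against the direction of the median, with the 3 highest and lowest levels, the stalk, tunnel exit, MRPS18 and MRPS30 genes and up to 3 called pathway genes per direction. The members and lists were chosen with earlier results of these data known. Alternatives were DESeq2 1.42.0, RLE size factors, no filter, a replicate block, length and GC offsets, 1 fit of all libraries, 1 surrogate variable (sva 3.50.0), the unadjusted p, the adjusted p alone, other gene lengths and libraries left out. On simulated counts, 200 genes with higher counts were changed by a log2 FC of 1, more than most members changed. The test found again 198 for Input (13960 genes) and 160 for Polysome (14236). It found 191 and 188 between fractions in Ctrl (13531) and siRNAG5 (14612), and 122 for the difference (14672). False calls numbered 4, 6, 10, 11 and 7 in the same order. These counts do not tell how often changes as small as those of the members would be found. The simulation also held no split among the Polysome libraries.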

Additional observations from a re-analysis of the deposited data

Results flagged for a closer look

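Of 256 groups of 4 libraries of named genes that were examined, 15 held a library whose gap to the nearest of the others, divided by the range of the group, was over Dixon's 95% critical value for 4 samples. Chance alone flags about 1 in 20 groups. The values that follow are TMM-scaled CPM, the single library first and the others in parentheses.

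In Input Ctrl, GADD45GIP1 was at 530.3 in replicate 2 (448.9 to 454.3), MRPL20 at 366 in replicate 2 (308 to 317) and MRPS6 at 75.9 in replicate 2 (65.1 to 66.4). MRPL12 was at 84.7 in replicate 1 (99.1 to 99.3) and MRPS10 at 62.7 in replicate 4 (75.9 to 78.7). In Input siRNAG5 replicate 1, LRPPRC was at 73.2 (89.4 to 92.0), MRPL44 at 56.7 (61.2 to 61.7) and MRPS35 at 75.5 (83.4 to 84.96). MRPL51 was at 511 in Input siRNAG5 replicate 3 (448 to 449.7).

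In Polysome Ctrl replicate 1, MRM1 was at 5.66 (10.2 to 10.9), MRPS22 at 55.5 (76.9 to 80.5), MRPS31 at 13.7 (29.9 to 33.4) and OXA1L at 52.0 (75.8 to 77.3). In Polysome siRNAG5, MRPS22 was at 98.6 in replicate 1 (78.03 to 80.4) and MRPL2 at 79.0 in replicate 3 (93.0 to 94.7). Polysome Ctrl 1 is among the 3 Polysome libraries that stood apart in principal component 3.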

How the results depend on the processing

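In Input, 26 members were called lower (6.02% of all genes). The adjusted p alone gave 65 lower and 2 higher (19.1 and 17.9%), and library totals without TMM 15 lower (3.18%). Leaving out 1 library gave 20 (without Input Ctrl 2, 4.83%) to 32 (without Input Ctrl 1, 6.64%). The median of -0.46 became -0.35 with length and GC offsets and -0.35 with library totals. In Polysome, 20 were called lower (4% of all genes). DESeq2 gave 36 (7.64%), no filter on low counts 32 (3.44%) and all 16 libraries in 1 fit 47 (10.2%). Without the 3 Polysome libraries that stood apart it was 49 (12.1%) and with 1 surrogate variable 36 (9.9%). The unadjusted p alone gave 50 lower (13.3%). Library totals gave 8 lower and 1 higher, where 1.44 and 16% of all genes were, and a median of -0.19. Leaving out 1 library gave 0 (without Polysome Ctrl 2, 0.768% of all genes) to 30 (without siRNAG5 4, 5.72%).

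Between the fractions in Ctrl, 12 lower and 3 higher (18.8 and 20.8% of all genes) became 6 and 11 with offsets (18.2 and 18.9%). With library totals it was 1 and 24, where 5.55 and 45.7% of all genes were. The median of -0.13 became 0.15 with offsets and 0.39 with library totals. In siRNAG5 it was 11 lower and 3 higher (21.2 and 23.9% of all genes). Offsets gave 10 higher (22.3%) and all 16 libraries in 1 fit 21 lower (25.4%). The adjusted p alone gave 24 and 7, against 3734 and 3993 of 14795 genes. Library totals gave 0 and 33, where 5.39 and 57.6% of all genes were. The median of -0.25 became 0.11 with offsets and 0.47 with library totals. Leaving out 1 library gave 7 to 18 lower in siRNAG5 (19.6 and 21.9% of all genes). In Ctrl it gave 9 to 17 (16.8 and 19.3%). For the difference between the fractions, 0 calls became 9 lower without the 3 Polysome libraries, where 4.3% of all genes were. With 1 surrogate variable 1 was called lower (2.31%). The median of the difference became 0.13 with library totals. Library totals moved the median of all genes by the amounts given above, to 0.38 in Polysome and 0.21 for the difference. In other cases the cause was not tested. Library totals and leaving out Input Ctrl 3 and 4 were chosen after seeing the data.

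With the replicate number as a block the calls lower were 26 in Input (5.99% of all genes) and 20 in Polysome (3.87%). They were 12 in both Polysome against Input comparisons (19.7% in Ctrl and 22% in siRNAG5) and 0 for the difference (0%). Same-numbered Ctrl and siRNAG5 libraries did not deviate together in every pair (correlations of -0.16 to 0.06 in Input and -0.76 to 0.65 in Polysome). Between the fractions, which the study took from the same lysates, the correlations were -0.12 to 0.32 in Ctrl and -0.29 to 0.20 in siRNAG5, with 3 of 4 and 1 of 4 libraries correlating best with their own number. The labels do not say that a number marks a lysate. Per canonical transcript, the median RPKM was 198.4, 151.8, 187 and 118 for the large subunit and 73.5, 53.3, 60.2 and 48.2 for the small one in the 4 groups.

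Of 2137 alternatives for named genes, 1881 kept direction and side of the threshold, 158 lost and 64 gained the threshold, and 34 turned direction. In Input, MRPS35 became -0.067 without Input Ctrl 3 and 4, and -0.014 to 0.084 with 1 library left out. In Polysome, without the 3 libraries, MRPL30 was -0.019, MRPL45 -0.11, MRPS18B -0.077 and MRPS30 -0.0071, and MRPS30 was -0.0059 with all 16 libraries. With offsets MRPL30 was -0.043 and MRPL10 0.11, MRPL10 was 0.0024 with 1 surrogate variable, and MRPL10 and MRPL22 were 0.31 and 0.29 with library totals. With 1 library left out in Polysome, MRPL30 ranged from -0.015 to 0.17, MRPL45 from -0.052 to 0.13, MRPS18B from -0.091 to 0.15, MRPS30 from -0.020 to 0.10, MRPL10 from -0.12 to 0.064 and MRPL22 from -0.16 to 0.069. Between the fractions with library totals, MRPL1 was 0.00049 and MRPS5 0.023 in Ctrl, and in siRNAG5 MRPL45 was 0.064, MRPL22 0.11, MRPL2 0.15, MRPS22 0.13, MRPS28 0.15, MRPS36 0.16, MRPS26 0.20 and MRPS5 0.23. MRPS26 was 0.090 with offsets, and MRPL13 had a difference of -0.033 without the 3 Polysome libraries. MRPL38, MRPL53 and MRPS24, with under 200 reads over all libraries, failed the filter in some or all comparisons.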
